A study of Homo sapiens with 2 samples.

Results

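The heat shock and chaperonin genes were examined for peaks of KDM1B (LSD2), a flavin-dependent demethylase of histone lysines. The rule for membership uses gene symbols and takes the protein-coding genes of the HSPA, HSPH1, HSP90, HSPB, HSPD1, HSPE1, DNAJA, DNAJB, DNAJC, CCT and TCP1 names, with the regulators HSF1, HSF2 and BAG3. The rule found 86 of 20037 protein-coding genes. They fell into 15 HSP70 and HSP110 genes, 3 HSP90 genes, 7 small heat shock protein genes, 3 entries of the mitochondrial chaperonin, 10 genes of the cytosolic chaperonin TRiC and its relatives, 4 DNAJA, 12 DNAJB and 29 DNAJC genes and 3 regulators. The read-through genes HSPE1-MOB4 and DNAJC25-GNG10 are among them.

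The study mapped KDM1B over the genome of the triple-negative breast cancer line MDA-MB-231. Both of its groups, the anti-FLAG ChIP and the input, came from cells in which a retroviral vector stably drove KDM1B fused to 3 FLAG epitopes, so the protein mapped was the tagged one. A control from untagged cells was not analysed here. Each group held 1 library, and the values are the authors' log2 ratios of ChIP over input for 78536 peaks on hg38, with no read counts and no replicates. No value below therefore has a replicate error, and no test was made. Whether the labelled cell line expresses its markers cannot be read from a peak list.

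Chaperones help proteins to fold. HSP70 proteins bind short stretches of unfolded chain and are driven by J-domain partners, the DNAJ proteins, which stimulate their ATPase. HSP90 acts late, on near-native clients, the chaperonins enclose a whole chain in a ring-shaped chamber, and small heat shock proteins hold aggregating proteins without ATP. HSF1 is the factor that switches on the stress-inducible members by binding heat shock elements, inverted repeats of the unit GAA, and many of the other members are expressed in every growing cell.

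KDM1B peaks were found at most of these genes. The highest family medians of coverage were those of the mitochondrial chaperonin (60.2%, 3 entries), HSP90 (54.1%, 3 genes), the regulators (46.5%, 3 genes) and TRiC (43.0%, 10 genes). These medians rest on few genes, and coverage varied widely within families. Inside the gene span or at most 5 kb away, a peak midpoint was found for 71 of the 86 members (82.6%), against 67.3% of all protein-coding genes. Peaks covered a median of 9.96% of the members' spans (quartiles 0.194 and 39.5%), against a median of 1.5% for all protein-coding genes (quartiles 0.00 and 13.5%). At least 50% of the span was covered in 14 members (16.3%), against 7.26% of all protein-coding genes, and no base was covered in 20 members (23.3%), against 39.2%. The median number of peaks was 3.0 per member and 2.0 per protein-coding gene. With only the peaks at or above the list's median ratio, the members' share with a peak was 62.8% beside 55.6% of all genes, and their median coverage 1.54% beside 0.00%.

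Long genes have more room for peaks, so the shares were also read by gene length. Of the members under 10 kb, 18 of 28 had a peak in the gene or within 5 kb (64.3%, against 50.3% of all protein-coding genes of that length). From 10 to 30 kb it was 26 of 28 (92.9% against 69.2%), from 30 to 100 kb 23 of 25 (92.0% against 77.3%), and at 100 kb or more 4 of 5 (80.0% against 76.6%). The members' share with a peak was higher in each class below 100 kb, with the widest gap from 10 to 30 kb, the class that holds 8 of the 10 TRiC genes. At 100 kb or more, with only 5 members, it was near that of all genes. Median coverage from 10 to 30 kb was 28.5% against 4.59%, from 30 to 100 kb 16.0% against 3.13%, and under 10 kb 1.5% against 0.00%. At 100 kb or more the members did not have the higher median (0.56% against 0.612%), and under 10 kb 7.14% of members were covered over at least 50%, beside 8.22% of all genes of that length.

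**Figure D1:**
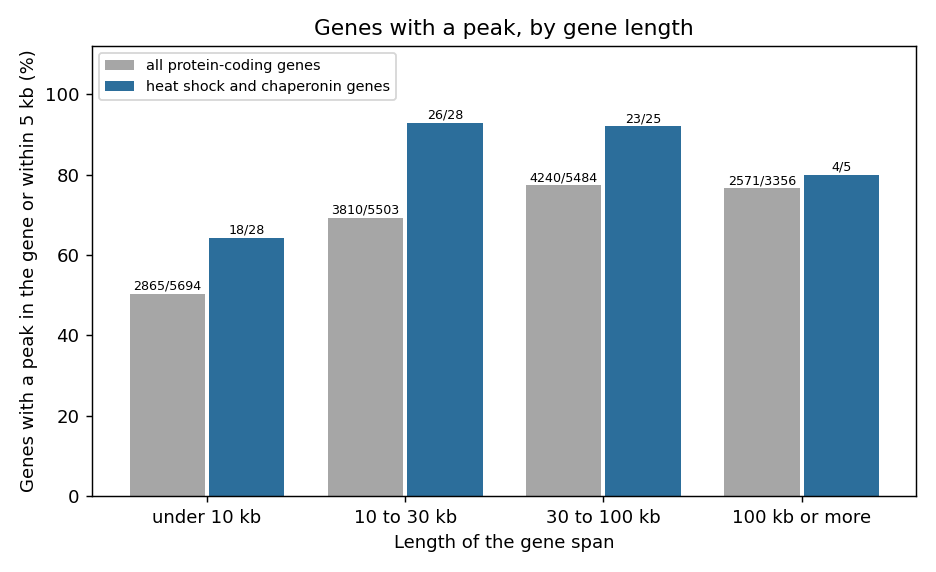
Percent of genes (vertical axis) with a KDM1B peak midpoint in the gene or within 5 kb, by length of the gene span, for all protein-coding genes (grey) and for the 86 heat shock and chaperonin genes (blue). Numbers above the bars are genes with a peak over genes in the class. The blue bar is higher in each class below 100 kb, at 92.9% against 69.2% from 10 to 30 kb. At 100 kb or more the bars are close (80.0% of 5 members against 76.6%).

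The peaks at these genes were of ordinary strength and slightly wide. There were 442 different peaks, 5 of them counted for more than 1 member. Their median log2 ratio was 2.88 (quartiles 2.55 and 3.31, range 1.71 to 5.65), against 2.99 over the whole list (quartiles 2.58 and 3.52). Their median width was 925 bp against 804 bp, and 12 of them (2.71%) were 5 kb or wider, against 1.42% of the list. The linear ratio stood at a whole multiple of the list's common step of 2.64 in 34 of them (7.69%), against 12.4% of the list. Of the 8 highest ratios at members, which ran from 4.86 to 5.65, all but the 5.07 at DNAJB12 had this form.

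**Figure D2:**
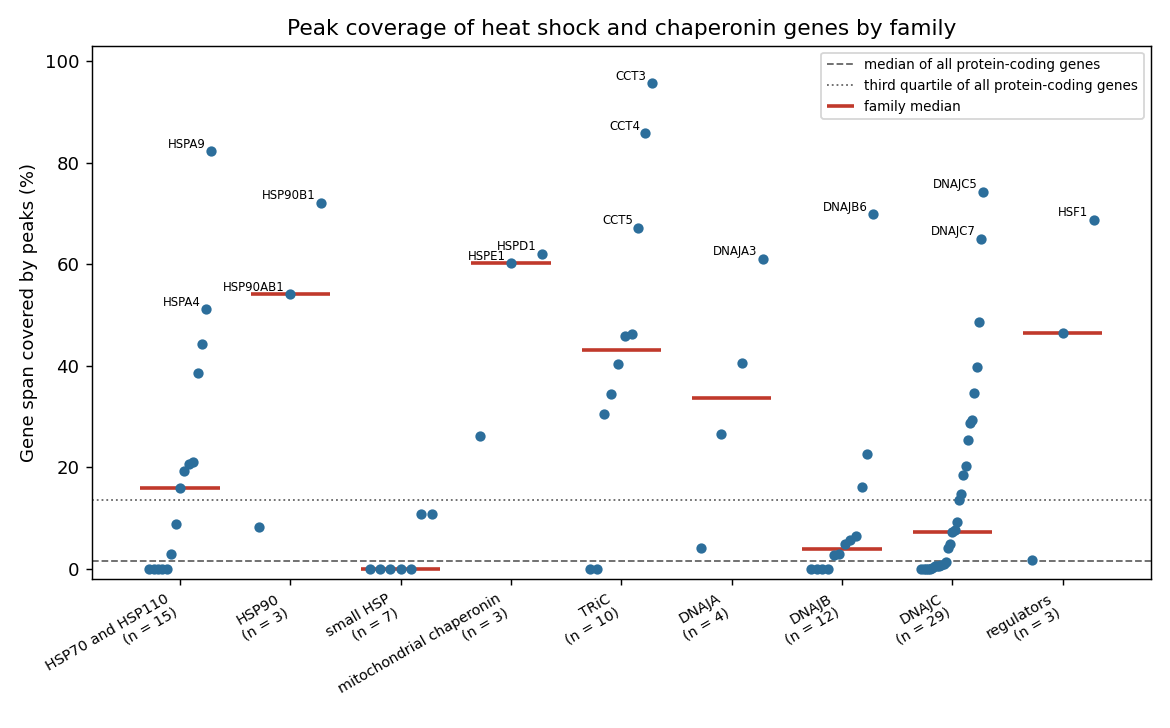
Percent of the gene span covered by KDM1B peaks (vertical axis) for each of the 86 genes (points), by family; red bars are family medians, and the dashed and dotted lines are the median (1.5%) and the third quartile (13.5%) of all protein-coding genes. Members at 50% or more are named, with CCT3 highest at 95.6%; the small HSP genes all lie at or under 10.8%.

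TRiC is the cytosolic chaperonin that folds actin and tubulin, built from 8 different subunits, and all 8 of the subunit genes carried several peaks. CCT3 was covered over 95.6% of its 29.3 kb, CCT4 over 85.8%, CCT5 over 67.2%, CCT2 over 46.3%, TCP1, which encodes the alpha subunit, over 45.8%, CCT6A over 40.3%, CCT8 over 34.5% and CCT7 over 30.5%. Every one of the 8 lay above the third quartile of all protein-coding genes, and their numbers of peaks ran from 5 at CCT6A to 12 at CCT4. The tissue-restricted relatives differed from them: CCT6B, a testis-enriched copy of the zeta subunit, had no covered base and a single peak (log2 2.67) upstream of its start, in its neighbour ZNF830, and the intronless CCT8L2 had no peak within 5 kb.

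CCT3 and CCT4 were covered almost throughout. Most of CCT3 lay under a single 23.8 kb peak (log2 ratio 3.63) (chr1:156311796-156335618). It was the widest of the 442 peaks, and it was flanked by peaks of 1.42 kb towards the start (3.47) and 3.04 kb towards the end (2.66). A further peak of 2.08 kb (3.20) lay just beyond the end. By coverage CCT3 ranked 70 of the 20037 protein-coding genes and CCT4 225. CCT4 was covered by 10 peaks with ratios from 2.32 to 3.38, which followed each other with short gaps from the start site, where a 1.33 kb peak (3.12) was centred, to an 8.21 kb peak (3.16) over the last part of the gene (chr2:61867753-61875968).

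The other TRiC subunit genes were covered in part. CCT5 held 8 peaks with ratios from 1.95 to 3.20, which followed each other closely over the later part of the gene. TCP1 had 5 peaks inside, the strongest with a log2 ratio of 4.70 in the middle of the gene (chr6:159784226-159785639) and the others between 3.14 and 3.96. CCT6A held 5 with ratios from 2.90 to 4.99. The highest of these was 601 bp wide and at a whole multiple of the step. CCT7 was covered mainly in its last part, by a 4.56 kb peak (3.11). CCT2 and CCT8 had no peak within 1 kb of a listed start although they held 7 and 5 peaks inside.

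HSPD1 and HSPE1, which encode HSP60 and its co-chaperonin HSP10 of the mitochondrial matrix, are transcribed in opposite directions from a shared start region. HSPD1 was covered over 62.0% of 13.7 kb and HSPE1 over 60.2% of 3.07 kb. The shared start region lay under a 1.44 kb peak with a log2 ratio of 2.53 (chr2:197499520-197500957), the lowest of the 4 ratios at HSPE1, which reached 3.93. Further into HSPD1 a 3.84 kb peak reached 3.44. The read-through gene HSPE1-MOB4, which runs on over MOB4, had 18 peaks, 11 of them in MOB4, and 26.2% coverage.

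The HSP90 genes differed among themselves. HSP90B1, the HSP90 of the endoplasmic reticulum (GRP94), was covered over 72.1% of 17.5 kb by 5 peaks with modest ratios of 2.12 to 2.94, the longest of 4.67 kb. HSP90AB1, the constitutive cytosolic form, was covered over 54.1% of 7.69 kb, with ratios of 2.97, 3.57 and 3.24 inside the gene. HSP90AA1, the stress-inducible cytosolic form, was covered over only 8.25% of its annotated 59.0 kb. That span includes a far upstream start, 52.7 kb from the inner one. Counted from the inner listed start, HSP90AA1 is 6.3 kb long and was covered over 34.8%, with peaks of 1.97 at the start and 2.92 and 2.91 further in. The order HSP90B1, HSP90AB1, HSP90AA1 was the same in either count.

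**Figure D3:**
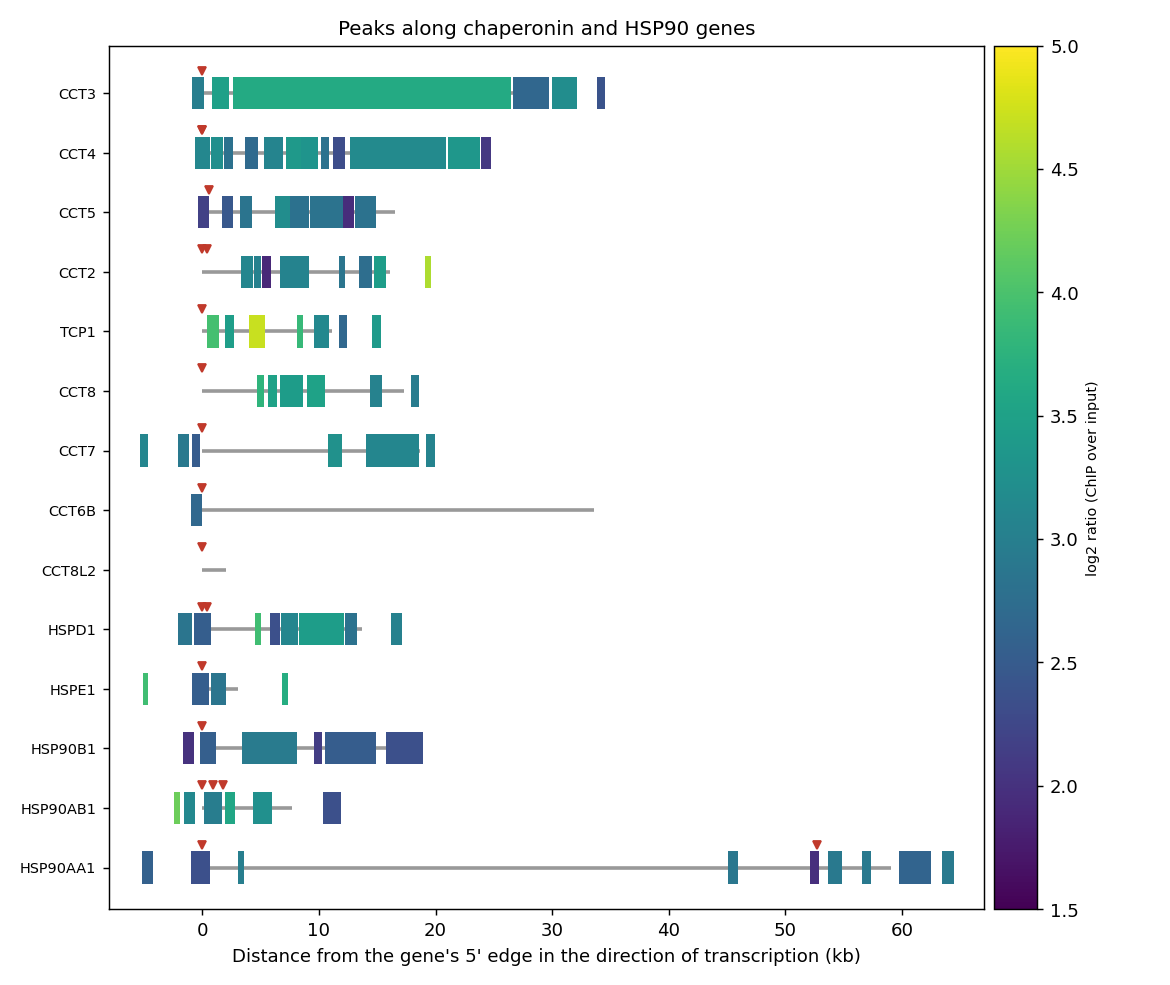
KDM1B peaks (coloured blocks, colour is the log2 ratio of ChIP over input) along TRiC, mitochondrial chaperonin and HSP90 genes (grey lines), each from its 5' edge and in the direction of transcription, in kb; red triangles are listed start sites, and CCT6A is not drawn. CCT3 and CCT4 are covered almost throughout, CCT6B and CCT8L2 hold no covered base, and the peaks of HSP90AA1 lie mainly at and beyond its inner start.

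Among the 15 HSP70 and HSP110 genes, 10 had a peak in the gene or within 5 kb (66.7%), which is the level of all protein-coding genes (67.3%), and the family spread from none to 82.2% coverage. The most covered, HSPA9, encodes mortalin, the HSP70 of mitochondria. It held 6 peaks, among them a 9.39 kb peak with a log2 ratio of 2.86 (chr5:138557762-138567152), and a further 1.74 kb peak (2.42) lay over its start. HSPA4, an HSP110-type exchange factor, carried 26 peaks over 54.4 kb (51.1% covered, ratios 1.88 to 3.23), 4.03 per 10 kb, and none wider than 2.42 kb. HSPA5 encodes BiP of the endoplasmic reticulum and was covered over 44.2% of 6.49 kb, with ratios between 2.32 and 2.99 inside the gene. HSPA8, the constitutive cytosolic HSC70, had 20.7% coverage and 3 low peaks (1.99, 2.24 and 2.37).

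Coverage in the rest of the family was 21.1% or less, HSPA6 apart. HSPA4L, the testis-enriched relative of HSPA4, had 3 peaks and 2.95% coverage over a similar 58.9 kb, and HSPH1, the stress-inducible HSP110, had 7 peaks and 15.9%. HSPA14, a ribosome-associated HSP70, had 6 peaks and 21.1%, and HSPA12B 5 peaks and 19.3%. HSPA2, a testis form that is also found elsewhere, had a single peak of 2.05 and 8.84%. That peak lies upstream of its only listed start, which is 4.84 kb inside the span, and from that start on no base was covered. HSPA12A, at 180 kb the longest gene of the family, and HSPA13 had no peak.

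The inducible HSP70 genes were split. HSPA1A and HSPA1B, the major inducible pair in the MHC class III region of chromosome 6, and their neighbour HSPA1L had no peak within 5 kb. HSPA6, the strictly inducible HSP70 gene of chromosome 1, had a peak over its start and 38.6% coverage, although at 1.71 that start peak had the lowest ratio of the 442. HSPA1A and HSPA1B are near-identical copies: the 300 bases around their starts were identical at 277 positions (92.3%) in a global alignment. HSPA6 also has a near copy, the pseudogene HSPA7. The sources used here do not say how reads with several matches were handled, so an absence of KDM1B at HSPA1A and HSPA1B and a loss of reads to copies cannot be told apart. Leaving HSPA1A, HSPA1B, HSPA1L and HSPA6 out gave 9 of 11 genes of the family with a peak, beside 67.3% of all protein-coding genes. Of the genes left out only HSPA6 had a peak, and they were chosen after the values were seen. The higher share thus follows from the choice and says nothing further about the family.

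**Figure D4:**
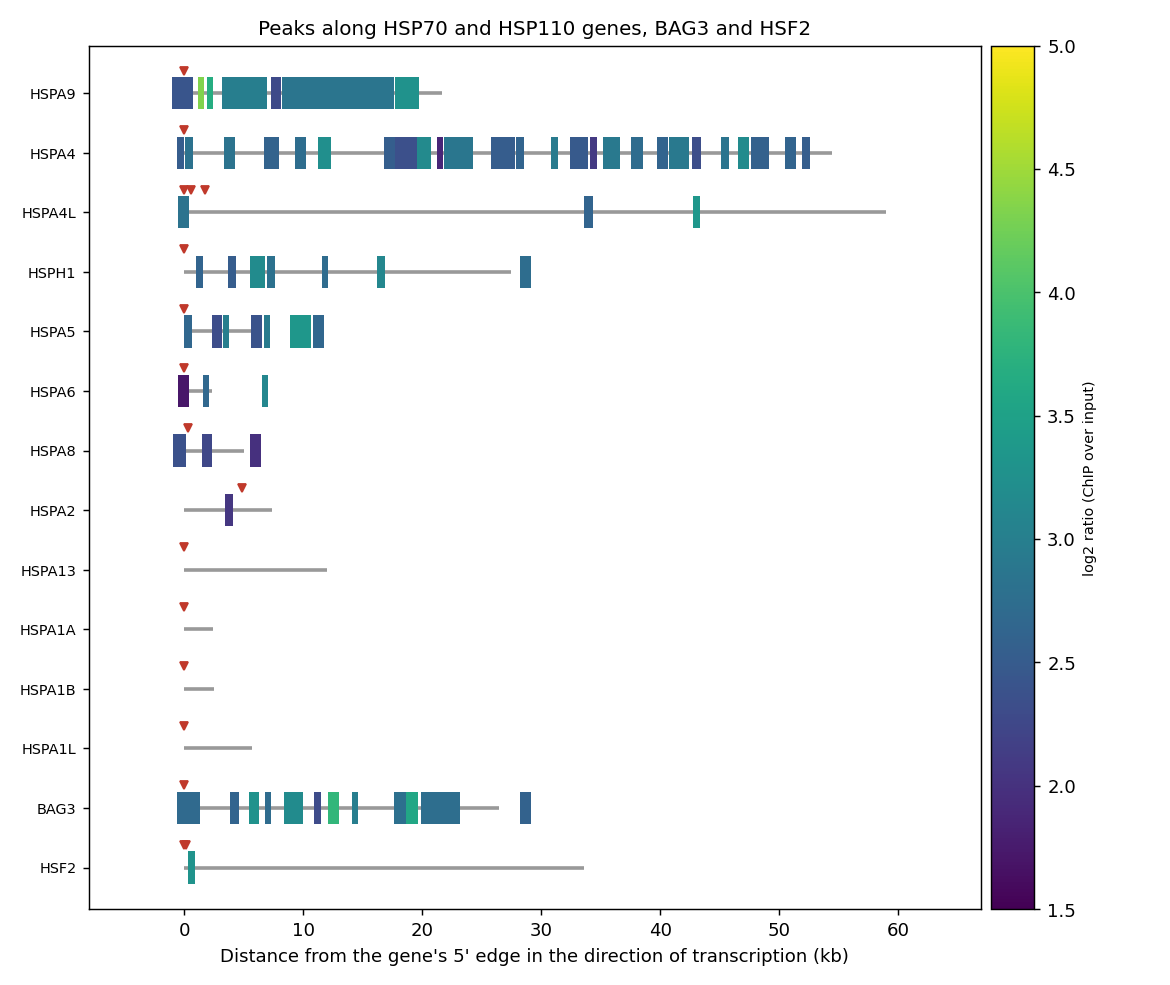
KDM1B peaks (coloured blocks, colour is the log2 ratio of ChIP over input) along HSP70 and HSP110 genes and the regulators BAG3 and HSF2 (grey lines), from the 5' edge in the direction of transcription, in kb; red triangles are listed start sites. HSPA9, HSPA4 and BAG3 carry peaks along the whole gene, HSPA4L and HSF2 few, and HSPA13, HSPA1A, HSPA1B and HSPA1L none.

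Among the regulators, HSF1 and BAG3 were broadly covered and HSF2 was not. HSF1, the master factor of the heat shock response, held 4 peaks inside with log2 ratios of 2.66 to 3.27, including an 8.85 kb peak (3.10), and was covered over 68.8% of 23.1 kb. BAG3, an HSF1 target that links HSP70 to selective autophagy, held 11 peaks from 2.30 to 3.80 and was covered over 46.5% of 26.4 kb. HSF2, a factor with roles in development, had a single 550 bp peak (3.30) centred 622 bp inside its start, and 1.64% coverage over 33.6 kb.

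The small heat shock protein genes had the lowest coverage of any family. A peak within 5 kb was found for 5 of the 7 (71.4%, against 67.3% of all protein-coding genes), but for only 1 of them, HSPB7, did a midpoint lie inside the gene. HSPB6 and HSPB7, expressed mainly in muscle and heart, were both covered over 10.8%, with ratios up to 2.90 and 2.86. The covered bases of HSPB7 all lie upstream of its listed start, 1.55 kb inside the span. HSPB1, which encodes HSP27, had its only peak (3.40, 570 bp wide) beyond its end. The peak of HSPB2 (2.57) lay in its neighbour CRYAB, itself a small heat shock protein gene, and 3 of the 4 of HSPB9 (2.15 to 2.66) lay in KAT2A or RAB5C. HSPB3 and HSPB8 had none. These genes are short, with a median of 1.62 kb. Of the 6 under 10 kb, 4 had no covered base (66.7%), beside 62.4% of all protein-coding genes of that length.

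All 4 DNAJA genes, the closest relatives of the bacterial co-chaperone DnaJ, had peaks, as had 67.3% of all protein-coding genes. From 10 to 30 kb, the length of 3 of the 4, it was 69.2% of all protein-coding genes. Of the 4, 3 were broadly covered. DNAJA3, which works in mitochondria, was covered over 61.1% of 30.9 kb by peaks with high ratios (median 3.83 over its 12 peaks), leading with 4.94 kb (3.76). DNAJA2 had 8 peaks and 40.6%, with a narrow 500 bp peak of 5.65 at a whole multiple of the step. DNAJA1, the abundant cytosolic form, had 4 peaks and 26.5%, and DNAJA4 2 peaks and 4%.

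In the DNAJB family 10 of 12 genes had a peak (83.3%, against 67.3% of all protein-coding genes), but coverage was 22.6% or less in all but DNAJB6, a suppressor of polyglutamine aggregation. DNAJB6 carried 27 peaks, the most of any member, over 69.8% of 80.4 kb. The widest were 9.09 kb (3.70), 8.04 kb (3.85) and 7.13 kb (3.68). DNAJB12, a J protein of the endoplasmic reticulum membrane, had 8 peaks, 22.6% and a maximum of 5.07. DNAJB1, the stress-inducible HSP40, was covered over 16.0% of an annotated 45.6 kb that overlaps TECR, in which 7 of its 8 peaks lay. The remaining peak, 2.08 kb wide (2.37), covered 47.6% of the 3.63 kb from one of its inner starts to its end. DNAJB4 had 5 peaks (4.96% covered, maximum 3.59), DNAJB13 3 (5.75%, 2.87) and DNAJB5 1 (6.42%, 3.18). DNAJB2 and DNAJB8 had none.

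The 29 DNAJC genes, a varied group that shares little beyond the J domain, ranged from 0.00 to 74.2% coverage, with a median of 7.16%, and 24 had a peak (82.8%, against 67.3% of all protein-coding genes). Their median span was 38.9 kb, and of all protein-coding genes from 30 to 100 kb 77.3% had a peak, close to the share of this family. The cysteine string protein gene DNAJC5, which serves synaptic vesicles, was covered over 74.2% of 40.9 kb, with a peak of 23.6 kb (3.34) that ran past its end. DNAJC7, an HSP70 and HSP90 co-chaperone, had 17 peaks and 65.0%, and DNAJC8, which associates with spliceosomes, 17 peaks and 48.7%. DNAJC11, of the mitochondrial membrane, had 19 peaks and 29.2%, DNAJC16 18 and 34.7%, and the splicing-linked DNAJC17 13 and 20.2%. DNAJC30 had 39.8% of its 2.54 kb covered. The highest ratios of the family were at DNAJC25-GNG10 (5.65), DNAJC3, DNAJC17 and DNAJC27 (all 5.49) and DNAJC10 (4.86), each at a whole multiple of the step. The 5.65 peak lies beyond the end of the read-through gene, and DNAJC25 itself had only a peak of 2.46.

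The paralogs of DNAJC5 were bare. DNAJC5B, which spans 86.3 kb, and the testis gene DNAJC5G had no peak, nor had DNAJC12, DNAJC19 and DNAJC28. The long genes DNAJC3, an inhibitor of stress kinases, DNAJC1 and DNAJC6, the neuronal auxilin, were covered over less than 1% (0.984, 0.553 and 0.56%). The remaining members that are not named had between 1 and 11 peaks.

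Coverage was read against the surroundings of each gene, taken as the 50 kb on each side that begin 5 kb from the gene. These flanks were covered over a median of 6.5% for the members and 2.48% for all protein-coding genes, so the members also lay in richer surroundings. The gene was more covered than its flanks in 52 of the 86 members (60.5%), against 40.2% of all protein-coding genes. CCT4 (85.8 against 1.29%), BAG3 (46.5 against 1.58%) and CCT2 (46.3 against 1.7%) lay in almost bare flanks. DNAJC5 lay in flanks covered over 65.0%, near to its own 74.2%, and HSF1 in flanks covered over 40.9%, beside 68.8% for the gene. HSP90AA1 (8.25 against 32.1%), DNAJC4 (14.8 against 50.9%) and DNAJC5G (0.00 against 34.8%) were less covered than their flanks. What part the surroundings have in the family differences was not tested.

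**Figure D5:**
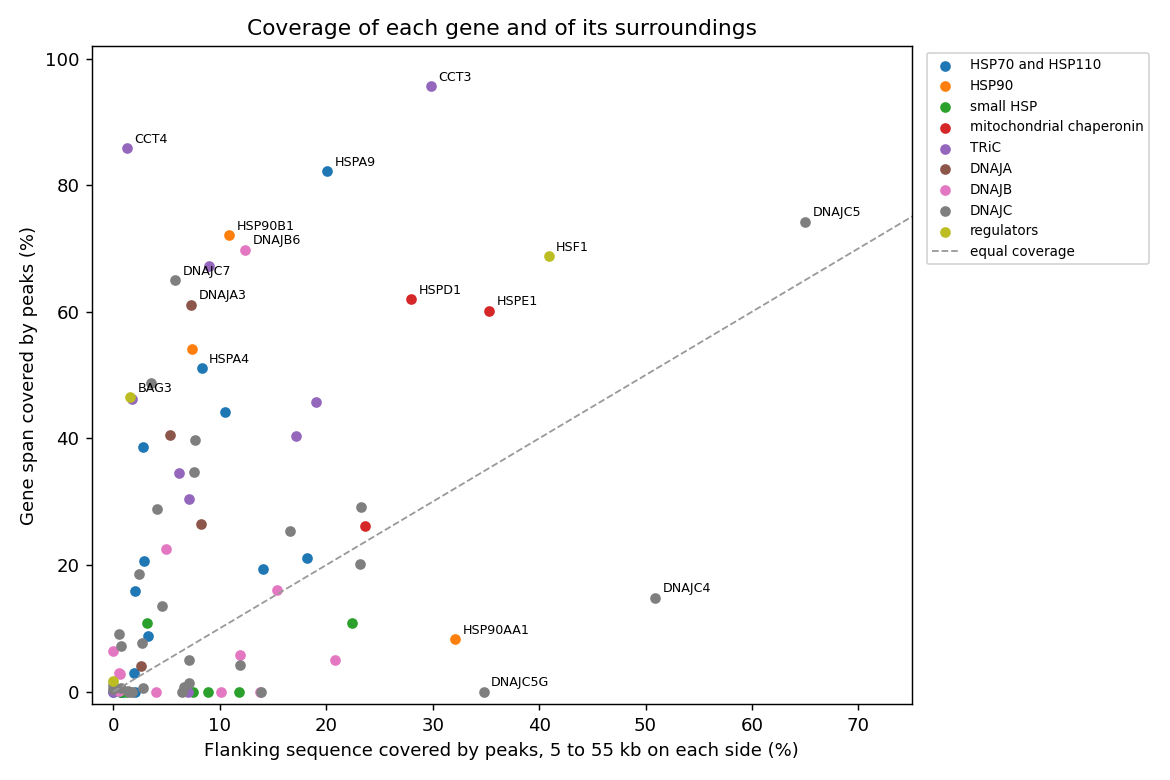
Percent of each gene span covered by KDM1B peaks (vertical axis) against percent of its flanks covered, 5 to 55 kb on each side (horizontal axis), for the 86 genes, coloured by family; the dashed line marks equal coverage. CCT4 and BAG3 lie far above the line with flanks under 2%, DNAJC5 lies close to it, and HSP90AA1 below it.

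RefSeq start sites (GRCh38.p14, with strand) were matched for 77 members and 15842 protein-coding genes. CCT6A, DNAJC1, DNAJC22, DNAJC24, DNAJC5B, HSF1, HSPA12B, HSPA14 and HSPB2 did not enter these counts. A peak midpoint within 1 kb of the outermost start was found at 42 of the 77 members (54.5%), against 37.3% of all protein-coding genes. All 3 HSP90 genes, both regulators with a listed start and the 3 entries of the mitochondrial chaperonin, which share the same peak, had one. So had 6 of 9 TRiC genes, 6 of 13 HSP70 and HSP110 genes, 3 of 6 small HSP genes, 6 of 12 DNAJB, 12 of 25 DNAJC and 1 of 4 DNAJA genes. Broad coverage and a start peak did not go together in every gene: DNAJA3 and DNAJC5 had more than 60% coverage and no start peak, while HSF2, DNAJC15 and DNAJB14 had a start peak and under 2% coverage. With only the stronger peaks of the list, 9 members kept a start peak (11.7% against 9.90% of all genes).

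Divergent starts were common. In 15 of the 77 members (19.5%) the start of another protein-coding gene on the opposite strand lay within 1 kb, against 10.2% of all genes with a listed start. They include the HSPD1 and HSPE1 pair, CCT3 with TSACC, TCP1 with MRPL18, DNAJA1 with APTX, DNAJC7 with NKIRAS2 and HSPA1A with HSPA1L. A start peak was found at 10 of these 15 (66.7%, against 59.2% of all genes with such a partner) and at 32 of the other 62 (51.6% against 34.8%). Some of the 15 are not separate places. HSPD1, HSPE1 and HSPE1-MOB4 share a start region and its peak, and HSPA1A and HSPA1L are each other's partner. Across the peaks inside members of 10 kb or more with a listed start, 32.3% lay in the first of 3 equal parts of the gene, 36% in the middle and 31.7% in the last. For all protein-coding genes of that length with a listed start these were 31.0, 30.5 and 38.5%. Pooled, the members' peaks were thus spread about evenly, without the lean towards the end that all genes showed together. By family, the first part held 19 of 44 such peaks in DNAJB (43.2%) and 14 of 40 in TRiC (35.0%). It held 13 of 39 in HSP70 and HSP110 (33.3%) and 32 of 115 in DNAJC genes (27.8%). In DNAJB, 25 of the 44 peaks were those of DNAJB6, and 7 of the 8 of DNAJB1 lay in TECR. The DNAJB share is thus mostly that of a single gene, and whether families differ was not tested.

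Heat shock elements were looked up in the 300 bases around the starts (250 before, 50 after), as the unit pairs GAANNTTC and TTCNNGAA. Both forms read the same on either strand. A pair was found at the outermost start of 16 of 77 members (20.8%), against 11.4% of all such starts, and 8 of these 16 had a start peak (50%), against 34 of the 61 without a pair (55.7%). Over all protein-coding genes these shares were 31.7 and 38%. With every listed start counted, the members' shares were 59.3% of 27 starts with a pair and 55.6% of the 72 without, so the order of the shares depended on which starts were counted. Runs of 3 alternating units, GAANNTTCNNGAA or TTCNNGAANNTTC, overlap the pairs and are rarer. When every listed start was counted, they stood at 7 of the 99 starts of members (7.07%) against 0.401% of all starts. A peak lay within 1 kb of 6 of these 7, all but that of DNAJA1, beside 50 of the other 92 (54.3%). Over all genes a peak was as common with the 3-unit form (37.1%) as without it (36.5%). A match is a description of the letters and not a bound site.

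The matches at starts with a peak are shown for the 8 members with the highest start-peak ratio, as 30 bases of the gene's own strand, 5′ to 3′, with the matching units in capitals (GRCh38.p14). Positions are first bases of the match relative to the start.

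TCP1, 231 bases upstream, peak 3.96, chr6:159789815-159789844: tcgtttgaggcGAAGGTTCaacctcttccc

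DNAJC15, 189 upstream, peak 3.67, chr13:43023386-43023415: tgtgagtgtgaTTCAAGAAcgtcccagtgc

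HSP90AB1, 165 upstream of an inner start, peak 3.57, chr6:44247770-44247799: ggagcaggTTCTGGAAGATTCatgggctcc

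HSP90AB1, nearer to the same start, chr6:44247823-44247852: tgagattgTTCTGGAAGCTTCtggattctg

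CCT4, 38 downstream of an inner start, peak 3.12, chr2:61888607-61888636: cccgacgccggcgccgctTTCTGGAAggtt

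HSPA4L, 170 upstream of an inner start, peak 2.83, chr4:127782141-127782170: tttccagatctTTCTCGAAcccgcagcttc

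CCT6B, 237 upstream, peak 2.67, chr17:34961679-34961708: aacggttgtacTTCGCGAAtggagattcta

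HSPB6, 210 upstream, peak 2.62, chr19:35757221-35757250: ttagtttcctcTTCTGGAAattggggaatc

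DNAJB6, 131 upstream, peak 2.58, chr7:157336865-157336894: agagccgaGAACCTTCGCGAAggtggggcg

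Of these 8 members, HSP90AB1 and DNAJB6 hold the 3-unit form. HSP90AB1 holds it at both places, and both lie under the peak with a ratio of 2.97, while the 3.57 peak, which set the rank, is centred 624 bp inside that start and covers neither. HSPB6 has a second pair, 196 bases upstream. The match at TCP1 lies under no peak, with 625 bases between the printed window and the 3.96 peak. The window of HSPA4L crosses the edge of its peak, with 16 of the 30 bases inside, and the windows of DNAJC15, CCT4, CCT6B, HSPB6 and DNAJB6 lie wholly under the peak given.

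The other starts with a peak and at least 3 alternating units belong to the mitochondrial chaperonin, HSP90AA1 and 2 HSP70 genes. They were chosen for display after their values were seen and had lower start-peak ratios, from 1.71 to 2.53.

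HSPD1, 245 upstream of an inner start, peak 2.53, chr2:197500061-197500090: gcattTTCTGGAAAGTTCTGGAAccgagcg

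HSPA8, 230 upstream, peak 2.37, chr11:123062345-123062374: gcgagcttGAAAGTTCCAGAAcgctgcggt

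HSPA8, 55 upstream, chr11:123062170-123062199: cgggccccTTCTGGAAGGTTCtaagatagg

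HSP90AA1, 88 upstream of the inner start, peak 1.97, chr14:102087111-102087140: gagggttcTTCCGGAAGGTTCgggaggctt

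HSPA6, 74 upstream, peak 1.71, chr1:161524458-161524487: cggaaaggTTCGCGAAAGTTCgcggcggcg

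The match of HSPD1 is the longest, 4 alternating units over 18 bases, and lies under the peak over the start region shared with HSPE1. The second HSPA8 window lies 97 bases outside the 2.37 peak, and the others of this group lie wholly under theirs. At HSPA6 the peak was centred 60 bp upstream of the start, within the 250 bases upstream of it, which are shown with both matches in capitals (chr1:161524290-161524539, plus strand).

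HSPA6: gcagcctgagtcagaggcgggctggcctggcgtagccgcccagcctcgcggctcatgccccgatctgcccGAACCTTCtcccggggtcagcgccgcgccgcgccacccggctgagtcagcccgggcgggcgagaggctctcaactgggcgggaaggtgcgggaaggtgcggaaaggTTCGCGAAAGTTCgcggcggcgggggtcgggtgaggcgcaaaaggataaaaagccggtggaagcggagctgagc

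HSPA1A, HSPA1B and HSPA1L also hold a pair, though not the 3-unit form of HSPA6, and had no peak. The searched bases of HSPA1A and HSPA1L overlap. At HSPA1A and HSPA1B an absence of KDM1B and a loss of reads to copies cannot be told apart. Whether the pair goes with a peak therefore cannot be read from these genes.

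The element of the endoplasmic reticulum stress response, CCAAT and CCACG with 9 bases between them on either strand, is bound by ATF6 with NF-Y. It was found at 2 of the 77 members (2.60%), against 0.114% of all outermost starts. Those 2 are the genes of the reticulum's own HSP70 and HSP90, HSPA5 and HSP90B1, and both had a start peak (log2 2.65 and 2.55). The matches, in capitals, are shown because no other member holds the element at its outermost start. The window of HSPA5 lies 48 bases outside the 2.65 peak, the first of HSP90B1 shares 22 of its 30 bases with the 2.55 peak, and the other lies wholly under it.

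HSPA5, 66 bases upstream, chr9:125241385-125241414: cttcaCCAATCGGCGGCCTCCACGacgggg

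HSP90B1, 194 upstream, chr12:103930211-103930240: cctgaCCAATCGGAAGGAGCCACGcttcgg

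HSP90B1, 89 upstream and on the other strand, chr12:103930316-103930345: gggtgCGTGGTGCGGCGCGATTGGtgggtt

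Of the other short elements searched on both strands, CCAAT alone was found at 32 of 77 members (41.6% against 36.4% of all outermost starts), TATAAA at 11 (14.3% against 9.75%) and GGGCGG at 52 (67.5% against 58.3%).

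Other genes of the chaperone system, taken from a list of co-chaperones, prefoldin subunits, organelle chaperones and stress sensors, mostly had peaks too, with uneven coverage. A peak in the gene or within 5 kb was found for 60 of 64 (93.8%, against 67.3% of all protein-coding genes), and median coverage was 17.8%, against 1.5%. The 5 most covered were P4HB, a protein disulfide isomerase (97.6%), LONP1, a mitochondrial protease (91.0%), STIP1, which joins HSP70 to HSP90 (87.8%), GRPEL1, the exchange factor of mitochondrial HSP70 (84.9%), and HYOU1, the HSP110 of the endoplasmic reticulum (84.6%). The stress sensors ERN1, EIF2AK3 and ATF6 each had a peak but were covered over only 2.63, 0.742 and 0.476%. Within the list, co-chaperones of HSP70 and HSP90 had a peak in 22 of 23, genes of the endoplasmic reticulum in 14 of 14 and mitochondrial genes in 8 of 8. Prefoldin subunits and TRiC helpers had one in 10 of 13 (76.9%, nearer to the 67.3% of all genes). Their median coverage was 3.26%, beside 46.0% for the 8 TRiC subunit genes.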

How the data were processed

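The submitters' processing notes name Trim Galore (0.4.5), Bowtie2 (2.2.9) and hg38. The peak caller and its thresholds are not stated there. The deposited list holds chromosome, start, end and the authors' log2 ratio of ChIP over input for 78536 peaks from 1 library per group. The log2 scale was read from the values, whose linear form repeats at whole multiples of one step. Depth is unknown, and coordinates are printed as deposited.

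Genes and start sites came from RefSeq tables of GRCh38.p14. Without exons in these tables, positions are given as within the gene span or outside it. A peak belonged to a gene when its midpoint lay in the span or within 5 kb. Coverage is the share of the span under peaks. The common step is the most common linear ratio divided by the smallest whole number that makes nearly all of the highest 1% whole multiples (tolerance 1e-06). Python 3.11.15, numpy 2.4.6 and pandas 2.3.3 were used, and counting was checked on made-up peaks.

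The members and lists were chosen with earlier results of these data known. Named were all members of the smaller families and the regulators, the 5 leading members of the small HSP and DNAJ families by number of peaks, coverage or ratio, those without a peak, and the 5 most covered companion genes; AHSA2P of the companion list did not match. A few others are named beside a comparison, chosen after their values were seen. The outermost listed start was used as the start site, a choice made after the files were seen. Alternatives changed the distance, overlap, strength, joining and member list.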

Additional observations from a re-analysis of the deposited data

How the results depend on the processing

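Of 114 recomputed values, 106 stayed within 1.5 times the reported one. With only the stronger part of the list, the median number of peaks per member was 1.0 after 3.0, median coverage 1.54% after 9.96% and start peaks 9 after 42. Genes with a peak were 2 after 5 of the 7 small HSP genes and 6 after 10 of the 12 DNAJB genes. The share of all protein-coding genes was then 55.6%. The alternative removes the weaker peaks of all genes alike. Counting midpoints in the gene only left 1 of 7 small HSP genes and 7 of 12 DNAJB genes, beside 58.0% of all protein-coding genes. Counting within 1 kb left 3 small HSP genes. Within 10 kb the median number of peaks was 5.0. Members with a peak stayed within 1.5 times of 71 under every alternative run. With 86 members this count could not rise by 1.5 times, so only a large fall would have shown. Family counts already at their full number could not rise either. The lowest count of members was 54, with the stronger part of the list (62.8%, beside 55.6% of all protein-coding genes). Chosen after seeing the data were the removal of whole multiples, any listed start and the removal of 4 HSP70 genes with or beside near copies. There are no replicates and no input counts, so neither the error of a ratio nor a threshold on significance could be varied. No paired analysis was possible because each group holds 1 library.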
